A study of Mus musculus with 9 samples.

Results

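The genes described here are 10 regulators and targets of the canonical Wnt pathway, taken by gene name: Ctnnb1, Apc, Axin1, Axin2, Tcf7, Tcf7l2, Lef1, Rnf43, Znrf3 and Lgr5. All 10 were found among the 16399 genes listed in the deposited files. They were compared over 9 libraries, with 3 biological replicates for each of 3 cell populations. MC38 is a mouse colon carcinoma line, and MC38-P is its parental population. MC38-LM3a and MC38-LM3b are derivatives obtained after 3 rounds of injection into the spleen, removal of liver metastases and culture. The paper calls them independently derived, but names a single MC38 line for each earlier round. Whether they shared those rounds is not stated in its text. All 3 populations carried a GFP and luciferase label, and the labels name no treatment. Each derivative is 1 line, so its replicates are samples of that line and not repeats of the selection. The question of the comparison is which transcripts differ between liver-selected derivatives and the cells they came from.

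In canonical Wnt signalling, a ligand bound to Frizzled and LRP receptors stops the destruction complex, which otherwise marks β-catenin for degradation. β-catenin then enters the nucleus and acts with transcription factors of the TCF/LEF family. Some targets, Axin2 and the ubiquitin ligases Rnf43 and Znrf3 among them, feed back on the pathway. In the intestine the pathway maintains crypt stem cells, and most colorectal tumours carry changes that activate it. The pathway is regulated largely at the protein level, so transcript levels do not measure its activity.

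Of the 10 genes, 4 were lower in the derivatives: Tcf7 and Lef1, which encode TCF/LEF factors, and the feedback genes Axin2 and Znrf3. In each of these 4, all 6 derivative libraries lay below all 3 MC38-P libraries. By comparison, 12.3% of tested genes, 9.74% of all listed genes and 4.15% of listed genes above 0 that failed the filter had the same separation. The mean level of Tcf7 in MC38-LM3a was 21.3% of that in MC38-P, that of Axin2 18.5%, that of Lef1 11.7% and that of Znrf3 47.2%. In MC38-LM3b these levels were 27.0%, 37.5%, 24.0% and 61.3% of the MC38-P mean. Ctnnb1, Apc, Axin1 and Tcf7l2 lay at 5.65 TPM or more in every library, and none was called lower in either derivative. Rnf43 and Lgr5 were at or near 0 in all 9 libraries.

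Values are TPM, a transcript level scaled for transcript length and for the library total. Tests were made by limma on log2(TPM + 1), for genes that reached 1 TPM in 3 or more libraries. This filter left 11287 genes. Of the 10 Wnt genes, 6 passed it (Ctnnb1, Apc, Axin1, Tcf7, Tcf7l2 and Znrf3), and Axin2, Lef1, Rnf43 and Lgr5 did not. A gene was called at a Benjamini-Hochberg adjusted p under 0.05 over all tested genes, and a DEG also had an absolute log2 fold change above 1. In MC38-LM3a against MC38-P, 28% of tested genes were called and 13.8% were called lower. In MC38-LM3b against MC38-P, 46.7% were called, 35.6% higher and 11.2% lower. Over all tested genes the log2 fold change had a median of 0.00 for MC38-LM3a. For MC38-LM3b it was 0.21, so the average gene of that line already lay above 0. Among the 6 Wnt genes tested, MC38-LM3a had 2 called lower and 0 higher, and MC38-LM3b had 2 lower and 1 higher. The lower genes were Tcf7 and Znrf3 each time. Both comparisons use the same 3 MC38-P libraries, so they are not independent of each other. Values of 0 say only that a gene is listed at 0, since TPM keep no record of sequencing depth.

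Libraries of MC38-P and of MC38-LM3a differed within their line along transcript length, while those of MC38-LM3b did not (Spearman correlations of -0.0126 to 0.016). The log2 deviations of MC38-P replicate 3 from the mean of its line's other replicates correlated with length at -0.62 (Spearman, 11096 genes). For MC38-LM3a replicate 3 the same correlation was 0.644. For most of the Wnt genes, MC38-P replicate 3 lay below and MC38-LM3a replicate 3 above the other replicates of its line. Between 10875 and 11218 genes reached 1 TPM in a library. The epithelial keratin gene Krt8 lay between 743.78 and 1205.6 TPM, while Cdh1, Vil1, Muc2 and Cdx1, also markers of colon epithelium, were under 1 TPM in every library. In all, 7 of 11 colon epithelium markers reached 1 TPM in at least 1 library, and their summed level was 2004 to 2318 TPM in MC38-P, against 1592 to 1812 TPM in MC38-LM3a and 1585 to 1630 TPM in MC38-LM3b. Krt8 and Krt18 made up most of these sums, Epcam (log2 fold change -1.14 and -1.07) was called lower in both derivatives, and Krt19 (0.39) was called higher in MC38-LM3a. Cdx2 lay at 1.8 to 2.86 TPM in MC38-P and 0.28 to 0.92 TPM in the derivatives, and Krt20 at 0.54 to 0.79 TPM in MC38-P and 1.21 to 1.83 TPM in MC38-LM3a, but each passed the filter only through the line where it is high, so their calls are not counted here. Markers of hepatocytes, which surrounded the metastases, reached 1 TPM in no library (0 of 7 listed). Genes of the stellate cell and fibroblast list, led by Col3a1 at 48.6 to 154 TPM, summed to 136 to 174 TPM in MC38-P, against 54.7 to 73.3 TPM in MC38-LM3a and 66.4 to 73.3 TPM in MC38-LM3b. Col3a1 (log2 fold change -1.34 and -1.19) and Col1a1 (-1.55 and -1.48) were called lower in both derivatives, and Pdgfrb of the same list was called higher in MC38-LM3b (0.88, limma adjusted p = 0.000695). Macrophage markers summed to 38.9 to 40.2, 48.7 to 53.7 and 55.4 to 60.0 TPM in the same order, led by Cd68 at 27.7 to 45.6 TPM, with Ptprc at 0.09 TPM or less. Of the 8 markers on that list, 4 were listed in the files and only Cd68 and Cd14 reached 1 TPM. Cd68 and Cd14 made up nearly all of the sum, and Csf1r lay at 0.14 TPM or less. Endothelial markers, led by Cdh5, summed to 1.90 TPM at most, with the lines overlapping. The epithelial and fibroblast sums were lower and the macrophage sum higher in every derivative library than in every MC38-P library, and their part in the results was not tested. In bulk RNA, fewer cells that express a gene and less RNA per cell cannot be told apart.

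Tcf7 encodes TCF-1, a TCF/LEF factor best known from T cells and also present in intestinal epithelium. Its level in MC38-P replicates 1 to 3 was 24.09, 22.9 and 19.17 TPM. In MC38-LM3a it was 3.8, 4.25 and 6.06 TPM, and in MC38-LM3b 6.02, 5.95 and 5.92 TPM. The lowest MC38-P library was therefore more than 3 times the highest derivative library. The log2 fold change was -2.03 (SE 0.149, limma adjusted p = 6.23e-06, n = 3 per line) in MC38-LM3a and -1.72 (SE 0.149, adjusted p = 1.60e-05) in MC38-LM3b. Tcf7 was the only one of the 6 tested Wnt genes that was a DEG, in both derivatives, where DEGs were 2.89% and 3.93% of tested genes and lower DEGs 1.5% and 1.18%. At a pseudocount of 0.1, Znrf3 also met the DEG thresholds in MC38-LM3a (-1.06, limma adjusted p = 0.00228). Of the T cell markers, 3 were listed (Cd2, Cd8a and Lck), 0 of them reached 1 TPM, and their sum was at most 0.59 TPM in any library.

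Lef1, a related factor that is a target of the pathway as well as a partner of β-catenin, had the lowest level of the family. It lay at 2.04, 1.41 and 0.84 TPM in MC38-P. The MC38-LM3a libraries held it at 0.2, 0.2 and 0.1 TPM, and those of MC38-LM3b at 0.4, 0.28 and 0.35 TPM. The values of MC38-P spread widely, but none came down to the derivatives. An exact two-sided permutation test of the 6 derivative libraries against the 3 of MC38-P gave p = 0.0238 for Lef1, unadjusted, the smallest that these 84 arrangements allow and the one that any complete separation gives. It treats samples of 2 lines as 1 group of derivatives. With 3 libraries against 3, the exact test cannot go below 0.1, and Lef1 stood at that value for each derivative alone. When the filter was dropped and all 16395 genes above 0 were fitted, Lef1 was called lower in both derivatives (limma adjusted p = 0.00202 and 0.00412), where 9.89% and 8.42% of genes were. Its log2 fold changes were -1.03 and -0.83 at a pseudocount of 1, and -2.47 and -1.72 at 0.1, because the pseudocount compresses low values.

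Axin2 encodes a scaffold of the destruction complex and is a widely used readout of canonical Wnt signalling. MC38-P held it at 0.74, 0.66 and 0.44 TPM, MC38-LM3a at 0.14, 0.1 and 0.1 TPM, and MC38-LM3b at 0.24, 0.13 and 0.32 TPM. Even the highest values, in MC38-P, were under 1 TPM. Without the filter, Axin2 was called lower in both derivatives, with log2 fold changes of -0.53 and -0.39 (limma adjusted p = 0.00193 and 0.00598). At a pseudocount of 0.1 the values of Axin2 were -1.72 and -1.13.

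Znrf3 encodes a transmembrane ubiquitin ligase that removes Frizzled receptors from the cell surface, and it is induced by the pathway it restrains. Its levels were 7.61, 6.95 and 5.24 TPM in MC38-P, against 2.73, 2.66 and 3.96 TPM in MC38-LM3a and 4.17, 3.89 and 4.07 TPM in MC38-LM3b. The gap was narrower than for Tcf7, with the lowest MC38-P library 1 TPM or more above the derivatives. The log2 fold change was -0.89 (SE 0.156, limma adjusted p = 0.00188) in MC38-LM3a and -0.58 (SE 0.156, adjusted p = 0.0124) in MC38-LM3b. Tcf7 and Znrf3 were called lower in both derivatives in each of the 21 alternative analyses, which include leaving out each library in turn. For Znrf3 in MC38-LM3b the highest adjusted p among them was 0.0457.

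**Figure D1:**
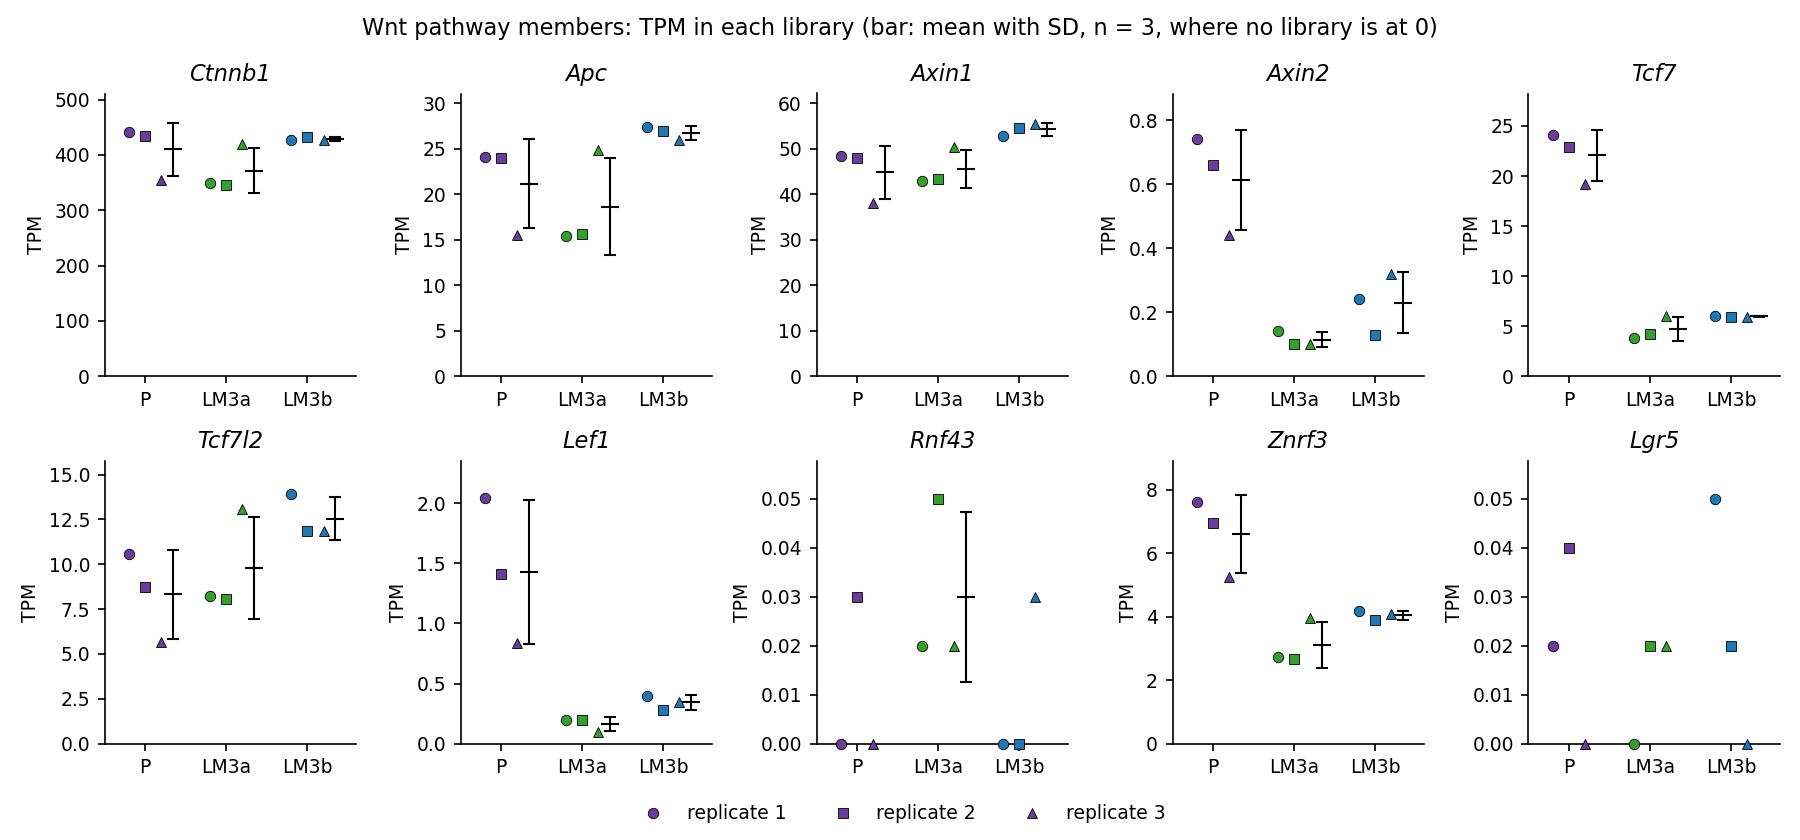
TPM of the 10 Wnt genes on the vertical axes, each starting at 0, by line (P, LM3a and LM3b stand for MC38-P, MC38-LM3a and MC38-LM3b) on the horizontal axes. Points are libraries, with the marker giving the replicate, and bars give the mean and SD where no library was at 0. Tcf7, Lef1, Axin2 and Znrf3 show every derivative point below every MC38-P point.

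The DNA upstream of Axin2 and Lef1 is shown because these genes are known targets that moved together at low levels. The sequences are the 250 bases before annotated starts, from RefSeq on GRCm38.p6, both on the + strand. The deposited values were made on GRCm39, and no position was converted. Capitals mark TCAAAG, the complement of CTTTGA read 5′ to 3′ on the other strand. CTTTGA is the only form of the TCF/LEF core motif that was searched, and other forms were not counted.
Axin2, chr11:108920099-108920348: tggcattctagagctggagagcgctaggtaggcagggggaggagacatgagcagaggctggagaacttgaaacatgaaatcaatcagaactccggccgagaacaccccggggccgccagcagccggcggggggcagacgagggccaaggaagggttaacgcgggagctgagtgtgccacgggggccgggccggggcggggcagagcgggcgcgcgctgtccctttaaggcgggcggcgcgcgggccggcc
Lef1, first start, chr3:131110047-131110296: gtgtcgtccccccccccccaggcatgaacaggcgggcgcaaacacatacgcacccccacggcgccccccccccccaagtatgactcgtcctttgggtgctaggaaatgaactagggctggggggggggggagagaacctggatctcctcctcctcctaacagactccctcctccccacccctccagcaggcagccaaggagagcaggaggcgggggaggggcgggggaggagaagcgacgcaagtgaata
Lef1, last start, chr3:131156044-131156293: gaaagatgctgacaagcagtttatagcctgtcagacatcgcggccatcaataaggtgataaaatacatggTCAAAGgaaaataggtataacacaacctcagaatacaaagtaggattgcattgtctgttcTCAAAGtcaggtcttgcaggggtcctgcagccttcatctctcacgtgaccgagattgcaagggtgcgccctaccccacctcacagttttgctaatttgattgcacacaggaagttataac
RefSeq gave 4 windows for Lef1, and the other two, not shown, hold no such motif. The last start lies within the gene and belongs to a shorter transcript. Its window holds 2 copies of TCAAAG, 180 and 120 bases before the start.

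RefSeq windows were at hand for 6 of the 10 genes (Axin2, Ctnnb1, Lef1, Rnf43, Tcf7 and Tcf7l2), and only that window of Lef1 held CTTTGA or TCAAAG. Over all 32851 windows of this length, 13.8% held it on either strand, and 15.8% of genes had at least 1 such window. A match is a description of letters, and its absence says only that these letters are not in the window. Full-length and shortened forms of Tcf7 and Lef1, which differ in whether they hold the β-catenin binding end, share 1 value per gene and were not separated.

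Tcf7l2 encodes TCF-4, the main TCF/LEF factor of the intestinal epithelium. Its levels were 10.56, 8.76 and 5.65 TPM in MC38-P, against 8.22, 8.06 and 13.06 TPM in MC38-LM3a and 13.91, 11.88 and 11.83 TPM in MC38-LM3b. MC38-LM3a overlapped MC38-P, and MC38-LM3b lay above it. The log2 fold change of Tcf7l2 was 0.22 (95% interval -0.26 to 0.69, limma adjusted p = 0.513) in MC38-LM3a and 0.57 (0.09 to 1.05, adjusted p = 0.0506) in MC38-LM3b. The second value missed the threshold narrowly and passed it in 5 of the 21 alternatives, among them the correction for GC content and transcript length (0.38, adjusted p = 0.0430) and the fits without MC38-P replicate 1 or without MC38-LM3a replicate 3.

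Because TPM are scaled per length, levels of the TCF/LEF genes can be set beside each other within a library. Tcf7, Tcf7l1, Tcf7l2 and Lef1 together summed to 43.96, 39.17 and 30.41 TPM in MC38-P. The sums were 15.98, 16.54 and 24.57 TPM for MC38-LM3a, and 25.95, 23.22 and 23.6 TPM for MC38-LM3b. Every derivative library was below every MC38-P library. Tcf7 took 58.8% ± 4.13 (SD, n = 3) of this sum in MC38-P, compared with 24.7% ± 0.959 for MC38-LM3a and 24.6% ± 1.27 for MC38-LM3b. Tcf7l2 took 21.7% ± 2.79, 51.1% ± 2.23 and 51.6% ± 1.78. The ratio of Tcf7 to Tcf7l2 was 2.28 to 3.39 in MC38-P libraries and 0.433 to 0.527 in derivative libraries. Tcf7 was thus the most abundant transcript of the family in all MC38-P libraries and Tcf7l2 in all derivative libraries, with the replicate 3 libraries on the same side as the others. These shares restate the fall of Tcf7 above and were given no test of their own. Tcf7l1, usually a repressor, was called in neither derivative (log2 fold change -0.38 and -0.12, limma adjusted p = 0.0938 and 0.536), but was called lower in both after the GC and length correction (-0.30 and -0.28, adjusted p = 0.0181 and 0.0220).

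**Figure D2:**
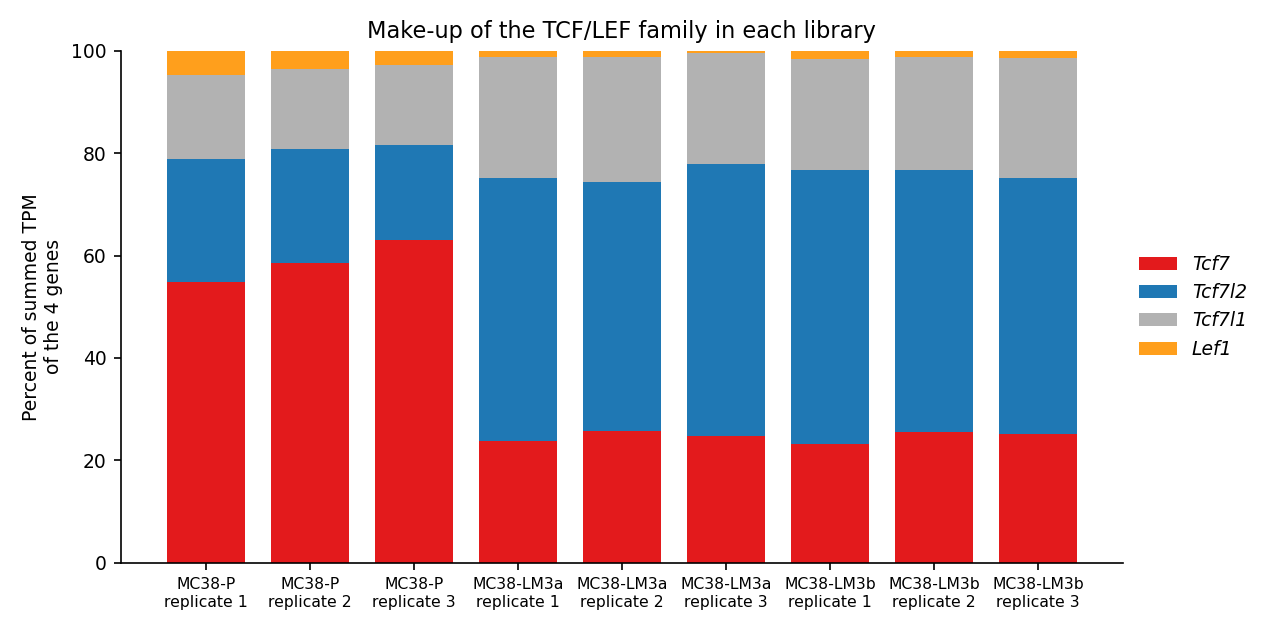
Percent of the summed TPM of Tcf7, Tcf7l2, Tcf7l1 and Lef1 on the vertical axis, as stacked bars from 0 to 100, for each of the 9 libraries on the horizontal axis. Tcf7 takes 54.8% to 63.0% of the sum in MC38-P and 23.2% to 25.7% in the derivatives.

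Ctnnb1 encodes β-catenin, the effector of the pathway, and was the most abundant of the 10 genes. It lay at 441.79, 433.96 and 355.22 TPM in MC38-P. Values were 349.78, 346.29 and 418.99 TPM for MC38-LM3a, and 427.36, 432.61 and 427.26 TPM for MC38-LM3b. MC38-P overlapped both derivatives, MC38-LM3b lay above MC38-LM3a in every library, and the replicate 3 libraries of MC38-P and MC38-LM3a each lay nearer to the other line than to their own. The log2 fold change was -0.14 (95% interval -0.35 to 0.07, limma adjusted p = 0.305) in MC38-LM3a and 0.07 (-0.14 to 0.28, adjusted p = 0.545) in MC38-LM3b, with the second turning to -0.11 after the GC and length correction and to -0.15 after centring each library on its median. Ctnnb1 was called lower in MC38-LM3a without MC38-LM3a replicate 3 (log2 fold change -0.23), without MC38-P replicate 3 (-0.24), without both (-0.33) and after the GC and length correction (-0.13, adjusted p = 0.0261). In GENCODE M21, exons of Ctnnb1 overlap those of Ulk4 on the opposite strand, but Ulk4 did not exceed 0.57 TPM.

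Apc and Axin1 encode scaffolds of the destruction complex, and Apc is the gene most often mutated in human colorectal cancer. Apc was at 24.03, 23.94 and 15.51 TPM in MC38-P, against 15.44, 15.61 and 24.82 TPM for MC38-LM3a and 27.42, 26.91 and 25.91 TPM for MC38-LM3b. The log2 fold change of Apc was -0.18 (95% interval -0.62 to 0.25, limma adjusted p = 0.542) and 0.35 (-0.08 to 0.78, adjusted p = 0.160). The replicate 3 libraries crossed over again, and leaving out both gave a called fall of Apc in MC38-LM3a (-0.60). Without MC38-LM3a replicate 3 alone, Apc was called higher in MC38-LM3b (0.35). Axin1 was at 48.48, 47.88 and 38.06 TPM in MC38-P, against 42.97, 43.35 and 50.42 TPM for MC38-LM3a and 52.73, 54.6 and 55.4 TPM for MC38-LM3b.
Axin1 was the only tested gene of the 10 called higher, in MC38-LM3b (log2 fold change 0.28, SE 0.103, limma adjusted p = 0.0470), near the median shift of 0.21 of all genes. The call was lost in 15 of 21 alternatives. With 1 library left out at a time, it was kept only without MC38-P replicate 1 or MC38-LM3a replicate 3, and after the GC and length correction the log2 fold change was 0.07 (adjusted p = 0.245). In MC38-LM3a the log2 fold change of Axin1 was 0.03 (adjusted p = 0.870).

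**Figure D3:**
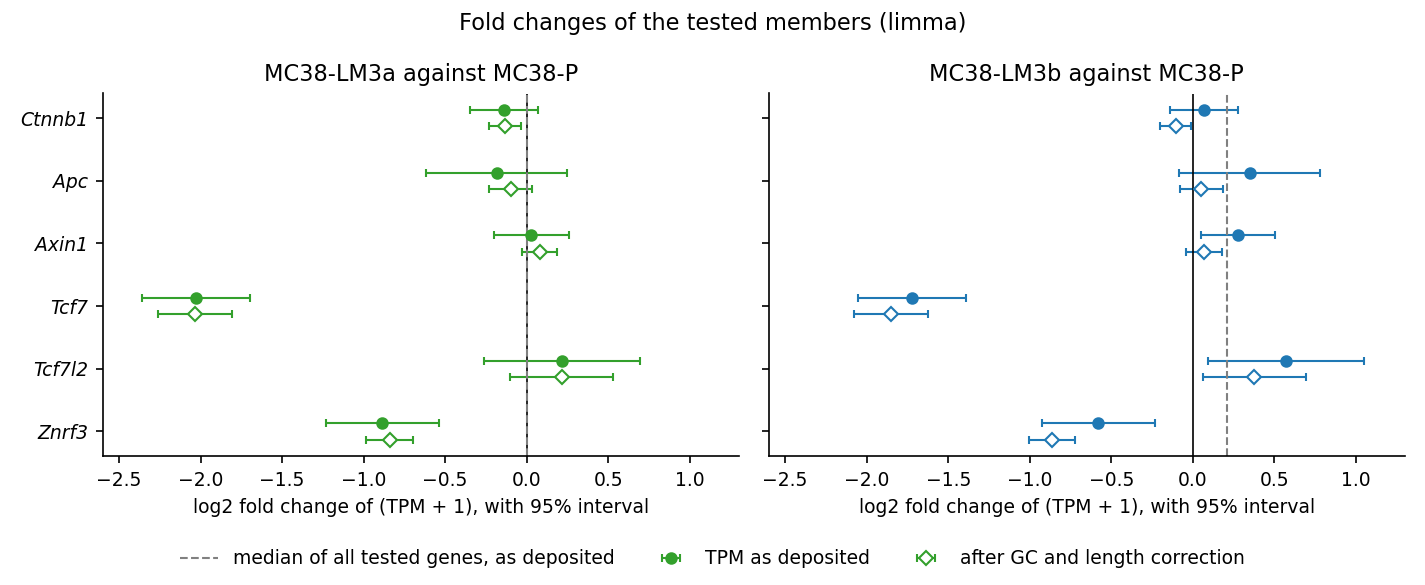
Log2 fold change of (TPM + 1) with its 95% interval on the horizontal axes for the 6 tested Wnt genes on the vertical axis, for MC38-LM3a (left) and MC38-LM3b (right) against MC38-P. Filled circles are values as deposited, open diamonds values after the GC and length correction, and the dashed line is the median of all tested genes. Only Tcf7 and Znrf3 have intervals below 0 in both panels under both scalings.

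Rnf43, the partner ligase of Znrf3, and Lgr5, the R-spondin receptor that marks intestinal stem cells, were not detectable above 0.05 TPM. Rnf43 was listed at 0, 0.03 and 0 TPM for MC38-P, at 0.02, 0.05 and 0.02 TPM for MC38-LM3a, and at 0, 0 and 0.03 TPM for MC38-LM3b. Lgr5 was listed at 0.02, 0.04 and 0 TPM, at 0, 0.02 and 0.02 TPM, and at 0.05, 0.02 and 0 TPM in the same order of lines. At such levels no order of the lines can be read. The exact permutation test of the derivatives against MC38-P gave p = 0.667 for Rnf43 and p = 1 for Lgr5.

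Between the derivatives, 0 of the 6 tested Wnt genes were called by limma, and 0.0532% of all tested genes were. At an unadjusted p under 0.05 there were 3 Wnt genes (Ctnnb1, Apc and Axin1), all higher in MC38-LM3b, and 38.1% of all tested genes. The largest log2 difference of MC38-LM3b from MC38-LM3a was that of Apc, 0.53 (95% interval 0.10 to 0.97, adjusted p = 0.119). That of Tcf7 was 0.31 (-0.02 to 0.64, adjusted p = 0.146) and that of Znrf3 0.31 (-0.04 to 0.65, adjusted p = 0.158), beside a median of 0.21 over all genes. This comparison turned on a single library. Without MC38-LM3a replicate 3, all 6 tested genes were called higher in MC38-LM3b, as were 52.2% of all tested genes. After the GC and length correction, with all libraries, the difference of Tcf7 was 0.18 (adjusted p = 0.305) and that of Znrf3 -0.02 (adjusted p = 0.837).

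The 4 lower genes do not share a place in the genome. On GRCm38 (GENCODE M21), Tcf7 lies at chr11:52252371-52283014, Axin2 at chr11:108920349-108950783, Znrf3 at chr11:5276324-5444847 and Lef1 at chr3:131110471-131224356. Rnf43 is on chromosome 11 too. Over the 932 tested genes of chromosome 11, the median was 0.00 for MC38-LM3a and 0.20 for MC38-LM3b, close to that of all genes. Within 500 kb of Tcf7 there were 9 other tested genes, with median log2 fold changes of 0.07 and 0.13. Around Znrf3 there were 12 (0.02 and 0.13), around Lef1 6 (0.23 and 0.25) and around Axin2 2 (0.27 and 0.45). Exons of Axin2 and Lef1 overlap exons of Gm11670 and Gm43352 on the opposite strand, and the sources used here do not say whether strand was kept, so reads of each pair cannot be told apart.

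The genes whose pattern over the 9 libraries was most like that of Tcf7 were Zfp706 (Pearson r = 0.998), Eif4b (r = 0.998) and Dixdc1 (r = 0.997), out of 11281 tested genes that are not among the 10. The 9 libraries share lines, so these values are descriptions. Dixdc1 encodes a DIX-domain protein of the Wnt pathway, and was at 1.97 to 2.61 TPM in MC38-P and 0.22 to 0.56 TPM in the derivatives, so it too was among the compared genes only through MC38-P. Zfp706 and Eif4b are on chromosome 15, whose tested genes had median log2 fold changes of -0.54 and -0.32. Among the 10 themselves, r with Tcf7 was 0.933 for Lef1, 0.930 for Axin2 and 0.947 for Znrf3. It was 0.0964 for Apc and -0.240 for Axin1. The high values restate the separation of these genes between MC38-P and the derivatives.

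The rest of the pathway was described from lists of 146 other genes, of which 124 were listed in the files and 84 tested. In MC38-LM3a, 7 were called higher and 16 lower (8.33% and 19.0%, against 14.1% and 13.8% of all tested genes). In MC38-LM3b, 21 were higher and 8 lower (25% and 9.52%, against 35.6% and 11.2%). Their median log2 fold changes were -0.10 and 0.17, beside 0.00 and 0.21 for all genes. Chromosome 15 held 9 of the 84, and 6 of the 16 lower calls in MC38-LM3a (Ccn4, Csnk1e, Ep300, Fzd6, Prickle1 and Wnt7b) and 3 of the 8 in MC38-LM3b (Ccn4, Prickle1 and Wnt7b) were there, where 68.8% and 48.5% of all 458 tested genes were called lower. On the other chromosomes 10 of 75 were lower in MC38-LM3a and 5 of 75 in MC38-LM3b (13.3% and 6.67%), against 11.5% and 9.61% of all tested genes there. Both counts include Fzd3 and Wnt9a, which passed the filter only through the MC38-P libraries, where they are high. The balance depends on scaling, since after the GC and length correction 18 were higher and 30 lower in MC38-LM3a, and 18 and 32 in MC38-LM3b, where 26.1% and 25% of all genes, then 29.2% and 28.3%, were so called.

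**Figure D4:**
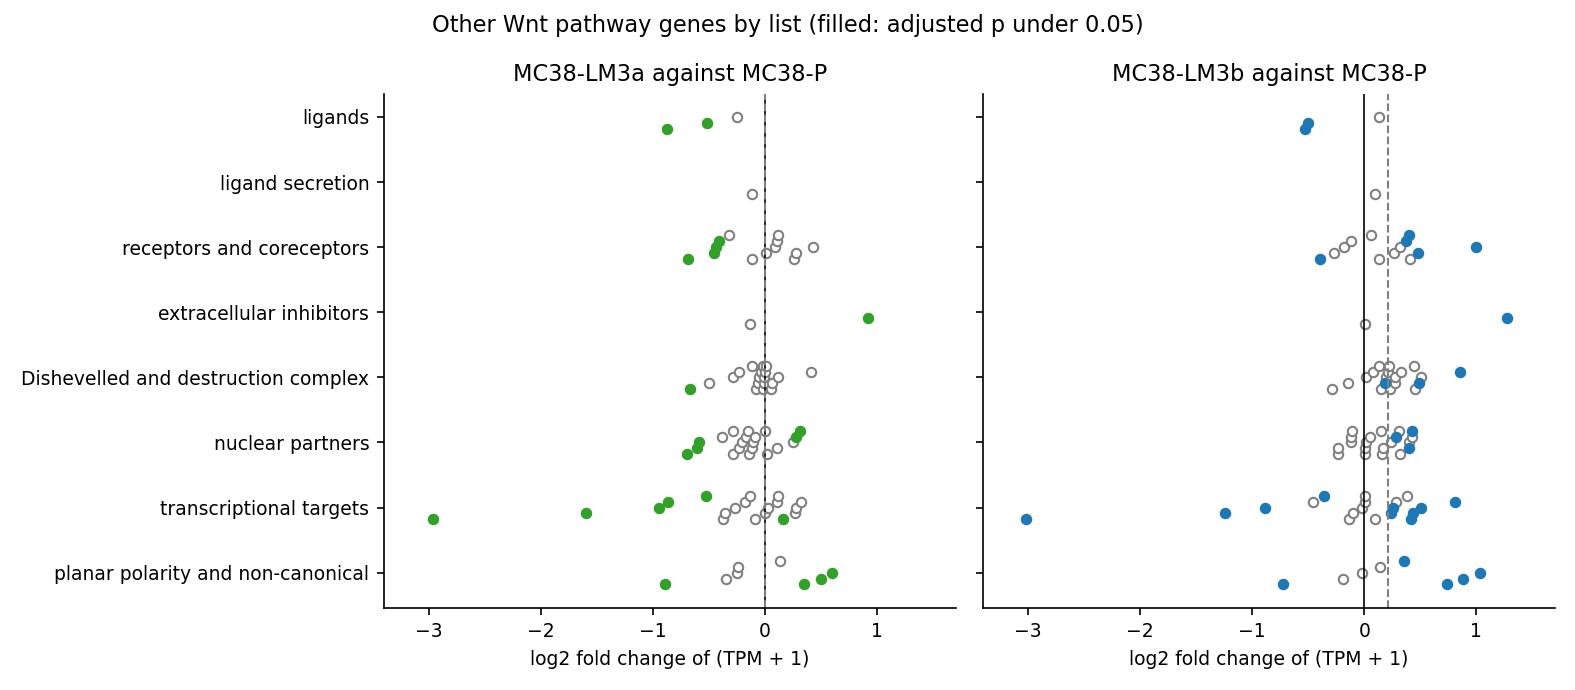
Log2 fold change of (TPM + 1) on the horizontal axes for each tested gene of the lists on the vertical axis, for MC38-LM3a (left) and MC38-LM3b (right) against MC38-P. Filled points were called, open points were not, the solid line is 0 and the dashed line is the median of all tested genes. The points farthest to the left are Ephb2 and Ccn4, both listed as targets.

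Among ligands, 3 of 15 listed genes were tested. Of these, 2 were called, both lower in both derivatives, against 13.8% and 11.2% of all genes lower, but only Wnt7b of them passes the filter without the MC38-P libraries. Wnt7b, a canonical ligand, was at 3.36, 3.24 and 2.6 TPM in MC38-P, against 1.25, 1.15 and 1.23 TPM for MC38-LM3a and 1.63, 1.84 and 1.96 TPM in MC38-LM3b. Its log2 fold changes were -0.88 and -0.53 (limma adjusted p = 0.000359 and 0.00449), beside medians of -0.54 and -0.32 for its chromosome, 15. The other was Wnt9a (-0.52 and -0.50), named after its values were seen. It reached 1 TPM only in the 3 MC38-P libraries and so entered the test through the line where it is high. R-spondins, the ligands of the Lgr receptors, had 3 listed genes and 0 tested. Of the ligand secretion genes only Wls was tested, and it was not called (-0.12 and 0.10), but was called lower in both derivatives after the GC and length correction (-0.16 and -0.15, limma adjusted p = 0.00866 and 0.0113).

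Of 13 tested receptors and coreceptors, MC38-LM3a had 4 called lower and 0 higher (30.8% lower, against 13.8% of all genes), and MC38-LM3b 1 lower and 4 higher (7.69% and 30.8%, against 11.2% and 35.6%). After the GC and length correction 2 were higher and 4 lower in MC38-LM3b, where 29.2% and 28.3% of all tested genes were. In MC38-LM3a 3 were then higher and 5 lower, against 26.1% and 25% of all tested genes. Before the correction, the lower calls in MC38-LM3a include Fzd3, a Frizzled receptor, and the 1 in MC38-LM3b is Fzd3. Its means were 1.47 TPM in MC38-P and 0.530 and 0.880 TPM in the derivatives. Fzd3 passed the filter only with the MC38-P libraries, so it had to be high there to be tested. Its calls are therefore given no weight here. Lrp5, a coreceptor of canonical signalling, was called higher in MC38-LM3b (0.99, adjusted p = 0.000952) and had 0.43 in MC38-LM3a (adjusted p = 0.0814). After the GC and length correction Lrp5 was called higher in both (0.54 and 0.66).

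Of the extracellular inhibitors, 2 were tested. Kremen1, a receptor of Dickkopf proteins that helps to remove LRP coreceptors, rose in both derivatives. It was at 19.89, 18.08 and 13.24 TPM in MC38-P, against 30.01, 29.03 and 40.04 TPM for MC38-LM3a and 43.35, 41.66 and 41.47 TPM in MC38-LM3b. Its log2 fold change was 0.92 (limma adjusted p = 0.00135) and 1.27 (adjusted p = 0.000126), and it was a DEG in MC38-LM3b. Among Dishevelled and destruction complex genes, 19 were tested, with 1 called lower in MC38-LM3a and 3 higher in MC38-LM3b, against 28% and 46.7% of all genes called. After the GC and length correction 2 were higher and 4 lower in MC38-LM3a, and 3 and 4 in MC38-LM3b. Of all tested genes, 26.1% and 25%, then 29.2% and 28.3%, were so called. Csnk1e, a kinase that acts on Dishevelled, was the lower one (-0.67, adjusted p = 0.00128; -0.28 and adjusted p = 0.0569 in MC38-LM3b, where it was called after the correction, at -0.46), and it too lies on chromosome 15, with medians of -0.54 and -0.32. Amer1, which binds Apc at the membrane, had the largest rise in MC38-LM3b (0.85, adjusted p = 0.00366; 0.41 and adjusted p = 0.121 in MC38-LM3a, where it was called after the correction, at 0.49). The correction lowered its value in MC38-LM3b to 0.55.

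Among 20 tested nuclear partners, 2 were higher and 3 lower in MC38-LM3a, and 3 higher and 0 lower in MC38-LM3b. These are 10% and 15%, then 15% and 0%, against 14.1% and 13.8%, then 35.6% and 11.2%, of all genes. The counts depend on scaling, with 4 higher and 8 lower in MC38-LM3a and 3 and 9 in MC38-LM3b after the GC and length correction. Under that correction 26.1% and 25%, then 29.2% and 28.3%, of all tested genes were so called. Tle3, a Groucho corepressor of TCF/LEF factors, fell in MC38-LM3a (log2 fold change -0.70, limma adjusted p = 0.00948) and had -0.24 in MC38-LM3b (adjusted p = 0.249). It was called lower in both after the GC and length correction (-0.60 and -0.57). Tle5, a short member of the same family, rose in both (0.31 and 0.42, adjusted p = 0.0108 and 0.00141). Of 8 tested genes of planar polarity and non-canonical signalling, 3 and 4 were higher (37.5% and 50%) and 1 lower (12.5%) in each derivative. After the correction the higher counts were again 3 and 4, and the lower ones 2 and 3. The shares of all genes to set beside these are those given above for each scaling. Daam1, a formin of that branch, was the DEG among them (0.60 and 1.03, adjusted p = 0.0103 and 0.000325), though at 0.65 and 0.78 after the correction it was called without being a DEG.

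Listed transcriptional targets moved in both directions. Of 19 tested, 1 was called higher and 5 lower in MC38-LM3a, and 6 higher and 4 lower in MC38-LM3b, with medians of -0.13 and 0.01 beside 0.00 and 0.21 for all genes. These are 5.26% and 26.3%, then 31.6% and 21.1%, against the same shares of all genes as above. After the GC and length correction 5 were higher in each, and 8 and 9 lower. Of all tested genes, 26.1% were then higher and 25% lower in MC38-LM3a, and 29.2% and 28.3% in MC38-LM3b. Ephb2, a receptor of the crypt that positions epithelial cells, was at 25.26, 25.29 and 20.07 TPM in MC38-P, against 2.1, 2.3 and 1.99 TPM for MC38-LM3a and 2.11, 2.22 and 1.72 TPM in MC38-LM3b. No value lay between 2.3 and 20.07 TPM. Its log2 fold change was -2.96 (SE 0.127, limma adjusted p = 1.07e-07) and -3.02 (SE 0.127, adjusted p = 7.63e-08), more than that of Tcf7. Ccn4, a matricellular target first described as a Wnt-induced protein, was at 45.63, 44.16 and 32.59 TPM in MC38-P, against 11.67, 11.17 and 15.45 TPM for MC38-LM3a and 17.39, 16 and 16.01 TPM in MC38-LM3b. Its log2 fold change was -1.60 and -1.24 (adjusted p = 3.23e-05 and 0.000123), and its chromosome, 15, had medians of -0.54 and -0.32.

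Other targets, named after their values were seen, went different ways. Efnb1 was called lower in both derivatives (log2 fold change -0.53 and -0.36, limma adjusted p = 0.0108 and 0.0410). Plaur was called higher in both (0.16 and 0.24, adjusted p = 0.0329 and 0.00333). Bambi was called lower in MC38-LM3a (-0.86, adjusted p = 0.00422), and Met higher in MC38-LM3b (0.81, adjusted p = 0.00231). Ephb3, a receptor related to Ephb2, fell in both derivatives (log2 fold change -0.94 and -0.89, limma adjusted p = 0.00122 and 0.00121). Ccnd1, which encodes cyclin D1, was called higher in MC38-LM3b (0.50, adjusted p = 0.00154) and had 0.26 in MC38-LM3a (adjusted p = 0.0533). After the GC and length correction it was called higher in both (0.28 and 0.33). The adhesion receptor gene Cd44 was called higher in MC38-LM3b (0.43, adjusted p = 0.0119) with 0.11 in MC38-LM3a (adjusted p = 0.521), but after the correction it was called higher in both, at 0.13 and 0.16. Myc, also on chromosome 15, was called in neither (-0.27 and 0.01, adjusted p = 0.189 and 0.974), but after the GC and length correction it was called lower in MC38-LM3a (-0.28, adjusted p = 0.0299) and its value in MC38-LM3b was -0.13.

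**Figure D5:**
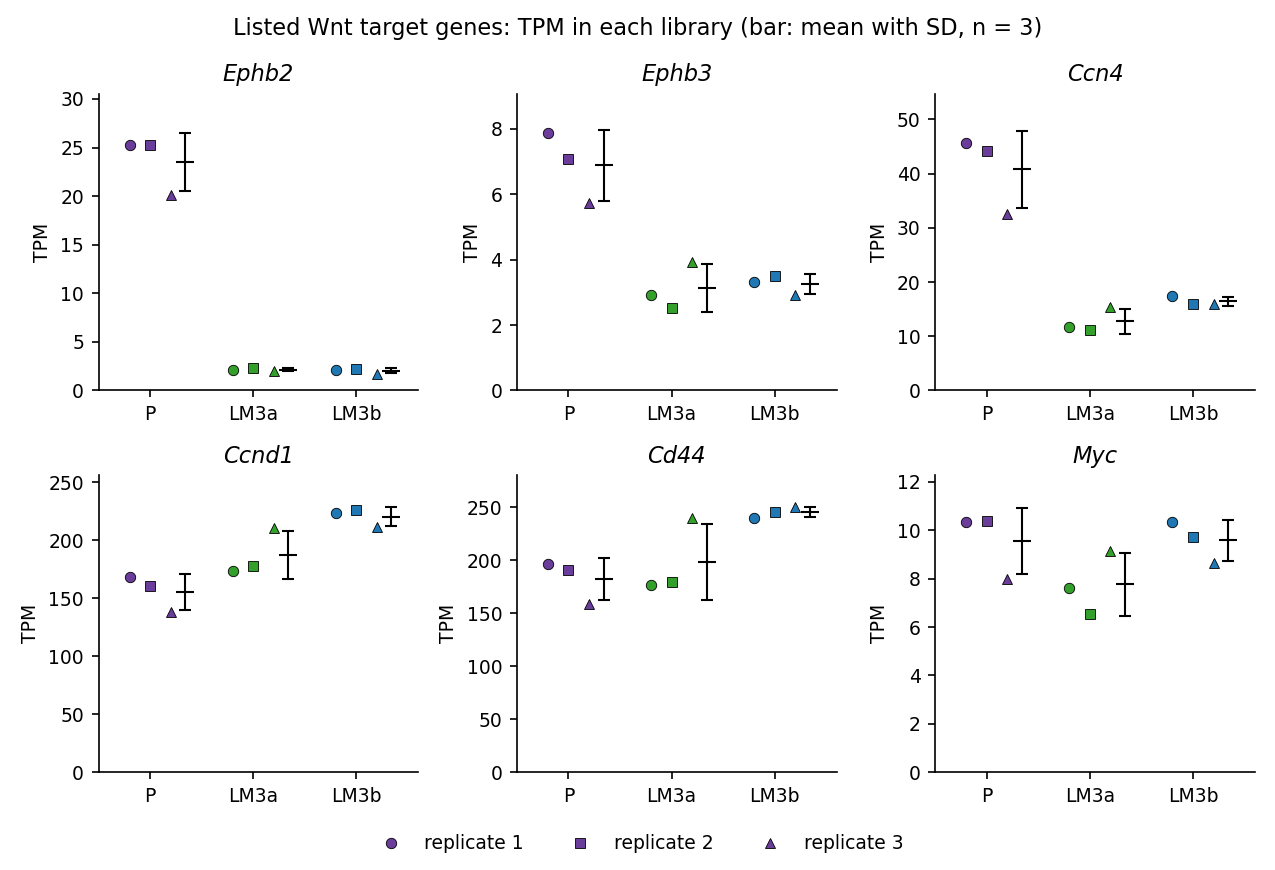
TPM of 6 listed Wnt targets on the vertical axes, each starting at 0, by line on the horizontal axes (P, LM3a, LM3b). Points are libraries and bars the mean and SD of 3. Ephb2, Ephb3 and Ccn4 are lower in every derivative library, while Ccnd1, Cd44 and Myc are not.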

How the data were processed

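Libraries of poly(A) RNA from 9 samples were read on the DNBSEQ platform. The authors deposited expression as TPM, 1 file per library, scaled to the same total in each, and the submitters' processing notes name HISAT and GRCm39. The quantification tool is not given in the sources used here, and the read depth is unknown. The paper's DESeq2 needs counts, so limma 3.58.1 in R 4.3.3 was used on log2(TPM + 1), with 1 mean per line, a trended variance and all 9 libraries. Exact permutation tests covered the 10 genes singly and are unadjusted. GC content and length came from the longest GENCODE M21 transcript (loess span 0.3, 98.3% of tested genes). The procedure was tested on simulated data.

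The genes and lists were chosen with earlier results of these data known, so no list is independent evidence. Named from each list were its DEGs, or otherwise the called gene with the largest change in each direction, and for each DEG of the 10 genes the 3 tested genes most like it. The most abundant gene of each marker list was also named. Alternatives changed the pseudocount, filter, scaling, replicate block and libraries, and those that need counts were not run. The study calls the replicates biological and does not say whether they were separate cultures, so p-values measure the spread between these samples, which may be in part technical.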

Additional observations from a re-analysis of the deposited data

How the results depend on the processing

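The calls of Tcf7 and Znrf3 held in all 21 alternatives, and those of Axin2 and Lef1 in the 3 that test genes under the filter, where 4 of the 10 genes were called lower in each derivative: no filter, no filter with a pseudocount of 0.1, and no filter with the GC and length correction. The last 2 were chosen after seeing the data. Of all genes fitted in these 3, 9.89%, 9.67% and 16.7% were called lower in MC38-LM3a, and 8.42%, 8.11% and 20.6% in MC38-LM3b. The 1 gene called higher in MC38-LM3b, Axin1, was lost (count of 0) in these 3, under quantile normalization, median centring, the replicate block alone and with the correction, and rose to a count of 2 with only the 2 groups compared in the fit. Under the correction without the block the count stayed at 1, but the gene was Tcf7l2. Of all tested genes, 42.3% were higher in MC38-LM3b with only the 2 groups compared, and 29.2% under the correction.

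Median centring turned Ctnnb1 in MC38-LM3b to -0.15 (limma adjusted p = 0.0442). Without both replicate 3 libraries of MC38-P and MC38-LM3a, Axin1 in MC38-LM3a turned to -0.16 (adjusted p = 0.0119), 5 of the 10 genes were called lower there, 3 higher in MC38-LM3b, and 6 higher in MC38-LM3b against MC38-LM3a. Of all tested genes, 45.2%, 46.3% and 65% were called in those directions in that setting. Leaving out 1 library at a time gave 0 to 3 of the 10 genes higher in MC38-LM3b, 2 to 3 lower in MC38-LM3a, and 0 to 6 higher in MC38-LM3b against MC38-LM3a. The shares of all tested genes, in the same order, were 24.5% to 45.1%, 8.57% to 23.2% and 0% to 52.2%. The causes were not tested.

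For the 84 other pathway genes, MC38-LM3a counts were 4 higher with only the 2 groups compared or with the replicate block. Of all tested genes, 9.24% and 9.75% were higher there. The pathway counts were 14 higher and 26 lower under quantile normalization, and 13 and 26 under median centring. They were 18 and 30 under the correction, 16 and 28 with the block added, and 15 and 32 under the correction without the filter. Shares of all genes, in the same order, were 21.5% and 20.5%, 19.8% and 20.1%, 26.1% and 25%, 23.8% and 23.3%, and 17% and 16.7%. In MC38-LM3b, lower counts were 13 without the filter, 27 under quantile normalization and 27 under median centring (13 higher). They were 32 under the correction, 30 with the block added and 29 with the correction but no filter. The lower shares of all genes, in the same order, were 8.42%, 24.5%, 26.4%, 28.3%, 26.6% and 20.6%, with 22.9% higher under median centring. With only the 2 groups compared, 35 were higher, as were 42.3% of all tested genes. Without both replicate 3 libraries, 52 were lower in MC38-LM3a, 37 higher and 19 lower in MC38-LM3b, and 67 higher and 1 lower between the derivatives, where 45.2%, 46.3%, 19%, 65% and 6.78% of all tested genes were. Leaving out 1 library gave in MC38-LM3a 4 to 8 higher (10% to 14.2% of all genes) and 10 to 30 lower (8.57% to 23.2%). MC38-LM3b had 14 to 38 higher (24.5% to 45.1%) and 6 to 13 lower (8.07% to 13.8%). Between the derivatives 0 to 57 were higher (0% to 52.2%) and 0 to 1 lower (0% to 4.24%). Leaving out MC38-LM3a replicate 3 gave the highest counts (30, 38, 13, 57 and 1). Of all tested genes, 23.2%, 45.1%, 13.8%, 52.2% and 4.24% were so called there.

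Deviations of same-numbered replicates correlated at -0.34, -0.17 and -0.66 between MC38-LM3a and MC38-P. With MC38-LM3b they correlated at 0.04 to 0.07. Whether a shared replicate number marks libraries handled together is not known from these values. The block lowered the called share in MC38-LM3b from 46.7% to 34.5%. TPM give no depth, so counting error of the low genes Axin2, Lef1, Rnf43 and Lgr5 is unknown.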
